A study of Mus musculus with 2 samples.

Results

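Natural killer (NK) cells of brown adipose tissue (BAT) were selected from 2 single-cell RNA libraries of CD45+ cells by their own RNA counts. A barcode was taken as an NK cell when it held at least 3 unique molecular identifiers (UMIs, each a counted transcript) over the receptor genes Ncr1, Klrb1c and Klre1, at least 2 over the granule genes Gzma and Prf1, at most 2 over Cd3d, Cd3e and Cd3g, and 0 of Cd79a. Barcodes were kept from 200 detected genes upward and up to 10% mitochondrial UMIs, and 390 of the 4295 kept met this rule (9.08%). The control library gave 217 of them and the Adipo delta/delta library 173. These gene counts chose the cells, so the levels of the 9 genes are a description of the selection and no result.

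The study asked how leukocytes of BAT differ when adipocytes cannot break down stored fat. Both libraries came from male AdipoQ-CreERT2 ATGLfl/fl mice of the C57Bl/6 strain, given as 16 weeks old in the sample labels and as younger in the study's text. Control mice received vehicle and Adipo delta/delta mice received tamoxifen, which activates the Cre and deletes ATGL, the enzyme encoded by Pnpla2 that starts the release of fatty acids from triglyceride. The floxed gene and the inducible Cre are thus shared by both groups, and tamoxifen itself and the deletion cannot be told apart. The AdipoQ promoter drives the Cre in mature adipocytes, so no deletion in NK cells is part of the design. Pnpla2 was counted in NK cells at 39.1 counts per 1000000 UMIs (CPM) in control and 39.9 in Adipo delta/delta, which checks nothing about the deletion. How many mice gave each library is not given in the labels or methods. There is 1 library per condition, so differences between conditions have no replicate check and carry no p-value. Every interval given is at 95% and covers counting error only.

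NK cells are innate lymphocytes that kill infected or transformed cells without a rearranged antigen receptor. They carry granules with perforin and granzymes, and a mixture of activating and inhibitory receptors sets whether they fire. In mice these include Ly49 receptors, encoded by a cluster of Klra genes, of which some are inhibitory and others activating. Many bind major histocompatibility complex (MHC) class I molecules, and they are switched on in different combinations in different cells. Mouse NK cells mature from a Cd27-bearing stage toward a stage with Itgam, Klrg1, S1pr5 and Cma1. Fat tissue also holds type 1 innate lymphoid cells, relatives of NK cells that share Ncr1 and Klrb1c, tend to lack Eomes and carry Itga1 and Cxcr6.

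Among all barcodes, the kept cells held a median of 3678 UMIs in control and 3942 in Adipo delta/delta. NK cells were deeper, with medians of 6567 and 6493 UMIs and of 2230 and 2355 detected genes, and with summed totals of 1534900 and 1328488 UMIs. Single NK cells ranged from 975 to 26023 UMIs in control and from 2096 to 32312 in Adipo delta/delta. The 2 libraries shared 4 barcodes, and 2 of these were NK cells in at least 1 of them.

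Genes that the rule did not use describe these cells further. All 20 defining NK genes outside the rule were measured, and each was at least 2-fold higher in NK cells than in T cells in both libraries, where 11.4% of the 3228 genes measured were. T cells were taken as barcodes with at least 3 UMIs over the Cd3 genes and none of the 3 NK receptor genes or of Cd79a, which left 271 and 212 cells. The list of 20 was chosen with earlier results of these data known, and the T cells were chosen without NK receptor UMIs. The count thus describes the 2 groups and does not test the name. Tyrobp, the adaptor that carries the signal of activating receptors, stood at 3162 CPM in control and 3137 in Adipo delta/delta NK cells. Eomes, a transcription factor that defines NK cells against other innate lymphoid cells, had 227 and 233 CPM. Nkg7, a granule membrane protein, had 3318 and 3437. The 9 adipocyte markers listed had 0 UMIs in the NK cells of both libraries. Of the defining T cell markers, Cd4, Cd8a and Cd8b1 had 0 UMIs, whereas transcripts of the T cell receptor constant genes Trbc1 and Trdc, which NK cells can transcribe without a rearranged receptor, were counted 416 and 83 times in control and 422 and 75 times in Adipo delta/delta. Trbc2 was counted 250 and 290 times, Lef1 58 and 60, Trac 31 and 19, Cd28 30 and 32 and Bcl11b 18 and 15 times, while Cd5, Cd6 and Themis were counted at most 1 time in either library.

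RNA of other leukocytes was present at low levels and differed between the libraries. The 14 macrophage and monocyte markers summed to 205 CPM in control and 425 in Adipo delta/delta NK cells, against 1329 and 1317 in T cells. The 8 dendritic cell and MHC class II markers summed to 156 and 634 CPM, and the 8 neutrophil markers to 285 and 76.0. In 5 control and 7 Adipo delta/delta NK cells, more than 5 UMIs fell on Lyz2, C1qa, C1qb, C1qc, Csf1r, Apoe, Ms4a7 and Cd14 together. Without these 12 cells, the macrophage sums were 90.1 and 221 CPM and the MHC class II sums 75.4 and 198.

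**Figure D1:**
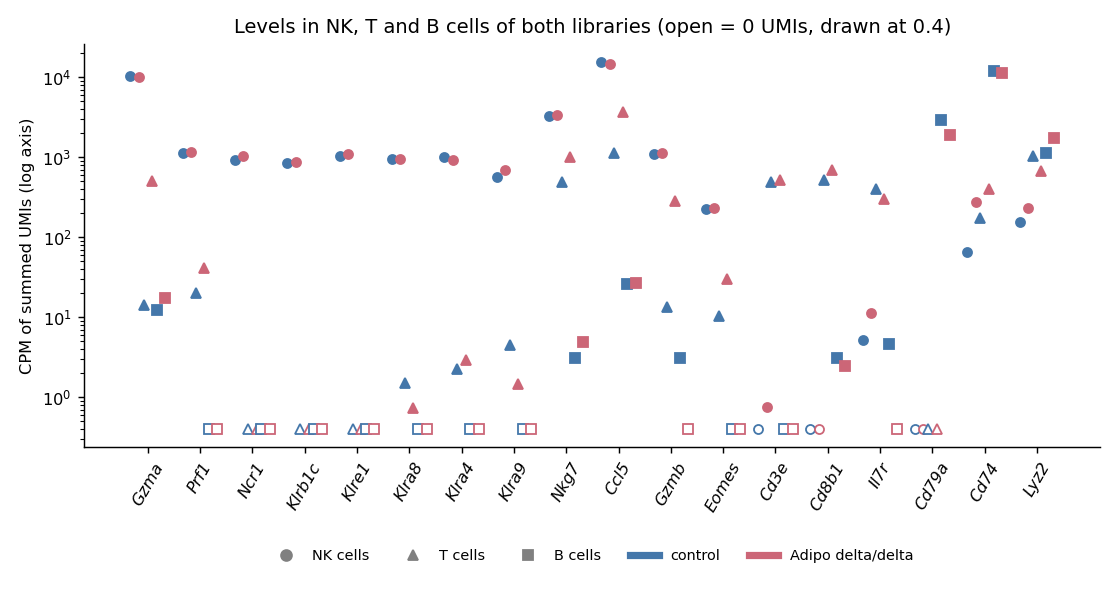
Level of each gene (CPM of UMIs summed over cells, log axis) in NK cells (circles), T cells (triangles) and B cells (squares) of the control (blue) and Adipo delta/delta (red) libraries. Open symbols at the bottom stand for 0 UMIs. In NK cells Gzma lies at 10369 and 10100 CPM and Klra8 at 946 and 965, while Klra8 lies at 1.49 and 0.724 CPM in T cells and at 0 UMIs in B cells.

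The promoters of 4 genes are shown, 2 that the rule used (Ncr1 and Gzma) and the 2 that set NK cells furthest from T cells without having been used (Klra8 and Klra4). Each sequence is the 250 bases before the start site in RefSeq (GRCm38.p6, the assembly known as mm10), in the direction of the gene. Capitals mark TGTGGT or its reverse ACCACA, which RUNX factors bind, and TCACAC or its reverse GTGTGA, which T-box factors such as Eomes and T-bet bind.
Ncr1 (chr7:4337474-4337723, plus strand): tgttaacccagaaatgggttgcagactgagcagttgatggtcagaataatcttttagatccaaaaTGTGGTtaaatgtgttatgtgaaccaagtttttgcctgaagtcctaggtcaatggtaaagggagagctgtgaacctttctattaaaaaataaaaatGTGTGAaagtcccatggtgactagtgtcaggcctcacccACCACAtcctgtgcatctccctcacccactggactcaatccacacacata
Gzma (chr13:113100982-113101231, minus strand): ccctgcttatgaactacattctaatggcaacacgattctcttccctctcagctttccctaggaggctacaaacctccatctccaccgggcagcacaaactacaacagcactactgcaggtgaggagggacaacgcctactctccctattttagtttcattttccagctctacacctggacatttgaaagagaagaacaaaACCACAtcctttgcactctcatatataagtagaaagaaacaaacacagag
Klra8 (chr6:130129899-130130148, minus strand): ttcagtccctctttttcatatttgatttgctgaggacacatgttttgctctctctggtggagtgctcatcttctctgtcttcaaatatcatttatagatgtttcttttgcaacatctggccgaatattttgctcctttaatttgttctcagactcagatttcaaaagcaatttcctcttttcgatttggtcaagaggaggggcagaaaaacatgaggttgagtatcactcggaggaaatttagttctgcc
Klra4 (chr6:130067272-130067521, minus strand): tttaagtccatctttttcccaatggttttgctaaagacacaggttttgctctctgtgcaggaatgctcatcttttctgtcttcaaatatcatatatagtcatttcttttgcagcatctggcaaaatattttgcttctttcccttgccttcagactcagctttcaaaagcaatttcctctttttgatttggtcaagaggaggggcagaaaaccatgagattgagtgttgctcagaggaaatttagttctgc

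The windows of Klra8 and Klra4 shared 212 bases over 251 alignment columns (84.5%), while that of Klra8 shared 44.2% of columns with that of Ncr1. Whether transcripts of related Ly49 genes were counted for the right member was not tested, so values of single Ly49 genes are uncertain. Ncr1 held the RUNX letters 2 times and the T-box letters once, and Gzma held the RUNX letters once. Of the 15 genes that led NK cells over T cells, 12 had a RefSeq window, of which 3 held the RUNX letters and 0 the T-box letters. Among all 32851 windows, 14.0% held the RUNX letters and 12.3% the T-box letters. A match is a description of the letters and not of binding.

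The receptor limit of the rule cut through few cells, and the granule limit through more. Over the 3 receptor genes, NK cells held a median of 18 UMIs in control and 22 in Adipo delta/delta, and just inside the limit 1 control and 0 Adipo delta/delta cells held exactly 3. Just outside it, 3 control and 1 Adipo delta/delta barcodes held 2 UMIs and met the other conditions. Over Gzma and Prf1, the medians were 78 and 84 UMIs, 8 control and 0 Adipo delta/delta cells held exactly 2, and 11 and 6 barcodes outside held 1. Another 13 and 12 barcodes outside held 0. Which genes passed 1.5-fold between the libraries depended in part on this limit, as given at the end. Gzma, a serine protease of the granules, stood at 10369 CPM in control and 10100 in Adipo delta/delta NK cells. After each cell was thinned to 2000 UMIs, 204 of 214 and 168 of 173 NK cells held a Gzma UMI (95.3% and 97.1%), against 2.75% and 1.96% of B cells, which do not make it. Those B cells were chosen to hold no UMI of the 3 receptor genes, so their share can understate free Gzma RNA. Prf1, which encodes the pore-forming perforin, stood at 1134 and 1168 CPM. Ncr1, which encodes the activating receptor NKp46, stood at 924 and 1034 CPM.

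Beside the rule lay a small group with the receptors but without the granule genes. These 24 control and 18 Adipo delta/delta barcodes held at most 1 UMI of Gzma and Prf1 together, and their median depths were 9466 and 8043 UMIs. Klra8 had 0 UMIs in them in both libraries, and Klra4 had 0 and 1. Eomes stood at 4.13 CPM in control and 46.2 in Adipo delta/delta, below the 227 and 233 of NK cells. Itga1, an integrin of tissue-resident innate lymphocytes, stood at 178 and 46.2 CPM against 20.8 and 4.52 in NK cells. Cxcr6, a chemokine receptor of such cells, stood at 61.9 and 172 CPM against 4.56 and 3.76, and Ltb, which encodes lymphotoxin beta, at 450 and 739 against 77.5 and 120. Itga1 and Cxcr6 belong to a list of 17 residency and type 1 innate lymphoid genes, not all of which were higher here. Inpp4b was, at 128 and 178 CPM against 10.4 and 11.3. Cd69 stood lower, at 33.0 and 59.4 against 59.3 and 66.2. Rgs1, at 120 and 112 against 88.6 and 113, was higher in control and nearly level in Adipo delta/delta. Itgae and Hic1 had 0 UMIs in these barcodes of both libraries. Klra9 stood at 409 CPM in 17 of the 24 control barcodes and at 46.2 CPM in 3 of the 18 Adipo delta/delta barcodes. Klra7 stood at 41.3 CPM in control (10 UMIs in 1 barcode) and 231 in Adipo delta/delta (35 UMIs in 3). Klra3 stood at 61.9 (15 UMIs in 3 barcodes) and 92.4 (14 UMIs in 2). The Klra9 level in Adipo delta/delta rests on 7 UMIs. With so few barcodes, no difference between the libraries in the order of these genes is read. Mki67, made by dividing cells, had 206 UMIs over 8 of the control barcodes and 0 in the Adipo delta/delta ones. A further 8 control and 10 Adipo delta/delta barcodes had receptor and granule genes together with at least 3 Cd3 UMIs, and Gzma stood at 8692 and 8097 CPM in them.

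NK cells made up 9.52% of kept barcodes in control (8.35 to 10.8%, Clopper-Pearson) and 8.58% in Adipo delta/delta (7.39 to 9.89%). The ratio of Adipo delta/delta to control was 0.901 with an interval of 0.734 to 1.11, which holds 1. Relative to NK, T and B cells together, the shares were 30.3% of 715 cells and 37.4% of 463, a ratio of 1.23 (1.00 to 1.51). B cells, taken as barcodes with at least 3 Cd79a UMIs and none of the NK or Cd3 genes, numbered 227 in control and 78 in Adipo delta/delta. Relative to NK and T cells alone, the NK shares were 44.5% and 44.9%, a ratio of 1.01 (0.823 to 1.24). Shares say nothing of cell numbers in the tissue, which were not counted here.

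The receptors set NK cells furthest apart from T cells, in both libraries alike. By the smaller of the 2 library ratios, and with a T cell count under 3 taken as 3, the first 4 of 3228 genes were Klra8, Klra4, Klri2 and Klra9, and 8 of the first 15 belong to the Klra, Klrb1, Klrc and Klri families that lie on chromosome 6. These ratios rest on the same counts that separated the cells, so they describe the 2 groups and test nothing. Klra8 stood at 946 CPM in control NK cells and 965 in Adipo delta/delta, with 2 and 1 UMIs in the T cells, which gives ratios of 636 (176 to 5255) and 1332 (239 to 52650). Klra4 stood at 1002 and 916 CPM, with 3 and 4 UMIs in T cells. Klrb1a, an activating receptor of the NK1.1 family, had 251 and 236 CPM with no UMI in T cells, at least 112-fold and 108-fold higher against a floor of 3 counts per library. Klri2, which pairs with Klre1, stood at 299 and 311 CPM.

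Outside the receptors, Ccl3, a chemokine that attracts monocytes and macrophages, had 599 CPM in control and 536 in Adipo delta/delta NK cells against 1.49 and 4.35 in T cells. Cma1, a mast cell protease gene that mature mouse NK cells also transcribe, had 227 and 195 CPM against 0 and 1.45. Spry2, a feedback inhibitor of receptor tyrosine kinase signalling, had 158 and 158 CPM against 2.23 and 1.45. Khdc1a had 122 and 102 CPM with no T cell UMI, Styk1 132 and 136 CPM with none, and Adamts14, a procollagen-processing protease, 90.6 and 108 CPM against 1 UMI in each library's T cells. Cd244a, the SLAM family receptor 2B4, had 190 and 224 CPM against 3.72 and 2.17.

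By role, 9 of 10 measured NKG2, Klrb1 and other lectin-like receptors and 6 of 6 Ly49 receptors were at least 2-fold higher in NK than in T cells in both libraries. Over all genes measured the share was 11.4%. The same held for 8 of 12 granule genes, 8 of 15 transcription factors, 7 of 14 cytokine receptors and 5 of 9 cytokines and chemokines. Ccl5, a chemokine that recruits T cells and monocytes, stood at 15449 CPM in control NK cells and 13.8 times the T cell level, and at 14620 CPM and 3.94 times in Adipo delta/delta. In the other direction, 73 genes (2.26%) were at least 2-fold lower in NK cells in both libraries. They were led by Cd8b1, Dapl1, Cd8a and Ccr7, each with 0 UMIs in NK cells, and among the first 10 was Il7r, the interleukin-7 receptor, at 5.21 and 11.3 CPM in NK cells against 397 and 304 in T cells. Tcf7, which encodes the factor TCF-1, was also lower in NK than in T cells, with ratios of 0.113 and 0.252.

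NK cells differed from each other in which Ly49 genes were detected, and most held more than 1. At 2000 UMIs per cell, Klra8 was detected in 125 of 214 control cells (58.4%, 51.5 to 65.1%) and in 110 of 173 Adipo delta/delta cells (63.6%, 55.9 to 70.8%). Klra4 was found in 57.9% and 54.3%, Klra9 in 50.9% and 56.1%, and Klra7 in 46.7% and 48.6%. Klra3 was found in 21.5% and 25.4%, and Klra1 in 7.01% and 11.6%. For each of these 6 genes the intervals of the 2 libraries overlapped, as did those of the other Klra genes listed. In T cells the same genes were found in at most 1.79% of 223 control and 1.13% of 177 Adipo delta/delta cells. These T cells were chosen to hold no UMI of the NK receptor genes of the rule, so they can understate free RNA of NK cells. Thinning left out 3 control NK cells and no Adipo delta/delta NK cells, and 48 and 35 T cells. Without thinning, Klra8 was detected in 69.1% and 72.3% of NK cells.

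A median of 2 Ly49 genes was detected per control cell and of 3 per Adipo delta/delta cell, with means of 2.54 and 2.65. Of control cells 12 held none, 33 held 1, 64 held 2, 54 held 3 and 39 held 4, and of Adipo delta/delta cells 12, 24, 34, 53 and 43 did. At least 2 genes were found in 79.0% (72.9 to 84.2%) and 79.2% (72.4 to 85.0%). Klra8 and Klra4 were found together in 86 control cells, alone in 39 and 38, and neither in 51. Multiplying their shares gives 72.4 cells with both. In Adipo delta/delta, 72 cells held both, 38 and 22 held 1 of the 2, and 41 neither, against a product of 59.8. Klra9 and Klra7 were found together in 53 control cells against a product of 50.9, and in 37 Adipo delta/delta cells against 47.1. These counts share depth and cells, and a gene can be missed at this depth in a cell that transcribes it. Summed over the family, Ly49 genes took 3418 CPM in control and 3630 in Adipo delta/delta NK cells.

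**Figure D2:**
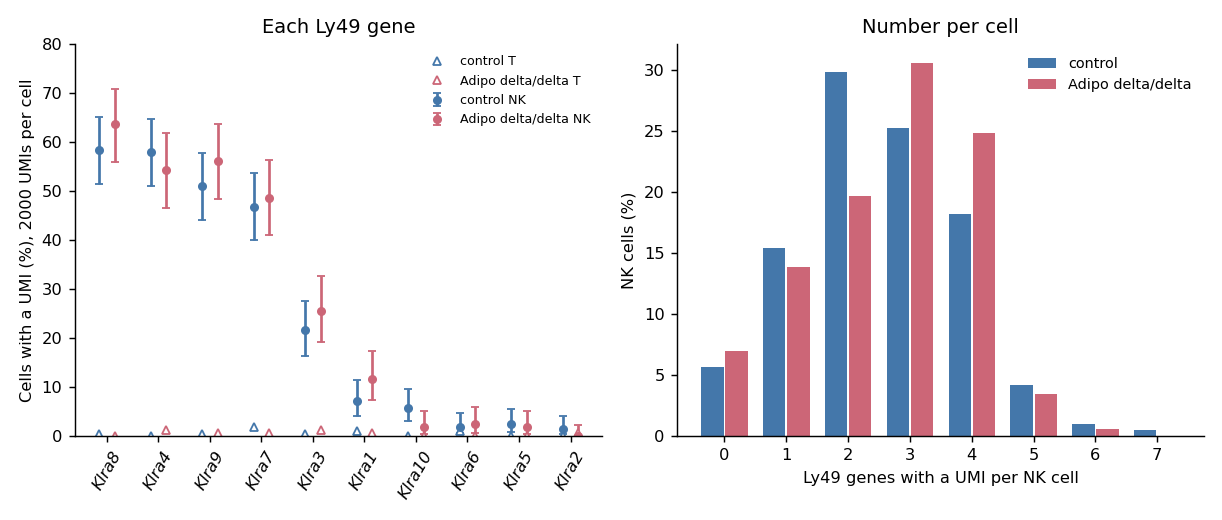
Left, percent of cells with at least 1 UMI of each Ly49 gene after thinning each cell to 2000 UMIs, in NK cells (filled, with 95% Clopper-Pearson intervals) and T cells (open triangles) of control (blue) and Adipo delta/delta (red). Right, percent of NK cells by the number of Ly49 genes detected. Klra8, at 58.4% and 63.6%, has overlapping intervals in the 2 libraries, and the most common number is 2 in control and 3 in Adipo delta/delta.

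Few genes differed by 1.5-fold between the NK cells of the 2 libraries. Of 4001 genes with at least 100 UMIs over the NK cells of both libraries, 117 (2.92%) were at least 1.5-fold higher in Adipo delta/delta and 44 (1.1%) at least 1.5-fold lower, and 96.0% differed by less than 1.5-fold. The median of all genes was 0.077 on the log2 scale, and 0.0069 when totals left out Gm42418, a gene that overlaps ribosomal RNA sequence. The split of calls depended on the scaling. With totals that leave out Gm42418 it was 70 higher and 65 lower, and with median-of-ratios scaling 57 higher and 80 lower, so that higher genes made up 72.7%, 51.9% and 41.6% of the calls in turn. Median-of-ratios scaling moved the median of all genes to -0.025, so that list medians below 0.10 turn their sign under it and no direction is read from them.

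None of 13 measured granule genes and 1 of 20 defining NK genes (Klrb1b) passed 1.5-fold, with list medians of 0.08 and 0.06, near the 0.08 of all genes. With 2.92% and 1.1% of all genes past, counts of 0 or 1 in lists of this size are near the background. Gzmb, granzyme B, had 1098 CPM in control (1047 to 1152) and 1149 in Adipo delta/delta (1092 to 1209). None of 18 measured adaptors and proximal signalling genes passed either, with Fcer1g at 2581 and 2621 CPM. None of 19 mature stage genes and none of 14 recirculation genes passed, and neither did any of 13 cytokine receptors, whose median was 0.25. Klrb1b, an inhibitory receptor that binds Clec2d, had 96.4 CPM in control and 151 in Adipo delta/delta, a ratio of 1.57 (1.26 to 1.95).

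The list members that passed 1.5-fold were few, and those near the limit depended on the scaling. Klrb1b, Tcf7, Ltb, Hsp90aa1 and Nr4a2 no longer passed with totals without Gm42418 (1.49, 1.47, 1.47, 1.45 and 1.45) or with median-of-ratios scaling (1.46, 1.44, 1.44, 1.42 and 1.42). Slfn2 and Pgam1 no longer passed under the latter alone (1.48 and 1.49), where Acsl4, Cxcr3 and Smad7 passed as lower (0.664, 0.661 and 0.663). Klra1 had 103 UMIs in 20 control cells and 177 in 25 Adipo delta/delta cells, a ratio of 1.99 (1.55 to 2.56), so that the UMIs sit in few cells of either library. Tox, a nuclear factor of NK cell development, had 43.0 and 76.0 CPM (ratio 1.77, 1.28 to 2.45) and Tcf7 had 45.0 and 69.3 (1.54, 1.11 to 2.14). Ltb had 77.5 and 120 CPM (1.54, 1.21 to 1.98). In T cells Tox had a ratio of 1.60 and Tcf7 one of 0.689, beside a median of 0.27 on the log2 scale over the 2806 genes measured there. Rgs2, a regulator of G protein signalling, had 33.2 and 62.5 CPM (1.88, 1.31 to 2.72). Under 100 UMIs, Gzmc, a granzyme of activated NK cells, had 2 UMIs in 2 control cells and 40 in 9 Adipo delta/delta cells, 20 of them in 1 cell.

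Ccl4 and Cd7 lay just short of 1.5-fold lower in Adipo delta/delta, and passed it with totals without Gm42418 (0.654 and 0.641) and with median-of-ratios scaling (0.640 and 0.627). Ccl4, a chemokine related to Ccl3, had 2366 CPM in control and 1624 in Adipo delta/delta (0.686, 0.650 to 0.724), although 1 control cell alone held 662 of the 3631 UMIs. Cd7, a surface receptor of early lymphocytes, had 242 and 163 CPM (0.673, 0.566 to 0.798). Ifng, the main NK cell cytokine, had 121 and 118 CPM, and Xcl1, a chemokine for cross-presenting dendritic cells, had 744 and 904.

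Of 9 measured heat shock genes 2 passed 1.5-fold, and their median was 0.50. These were Dnaja1, a co-chaperone, at 377 and 618 CPM (1.64, 1.47 to 1.83) and Hsp90aa1, an inducible chaperone, at 330 and 504 CPM (1.52, 1.36 to 1.71). In T cells their ratios were 1.94 and 2.54, and the list median was 1.01, beside 0.27 over all genes measured there. Of 13 interferon-stimulated genes 2 passed, namely Ifi27l2a and Slfn2, with a list median of 0.24. Of 12 glycolysis genes only Pgam1 passed (80.8 and 129 CPM), and none of 15 MHC class I genes, 10 lipid genes or 12 mitochondrial respiratory genes did. Over all 4001 genes 2.92% were higher and 1.1% lower, so the counts of 0 are near the background. The calls of Hsp90aa1, Slfn2 and Pgam1 depended on the scaling, as given above, so that the counts of these lists do too.

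**Figure D3:**
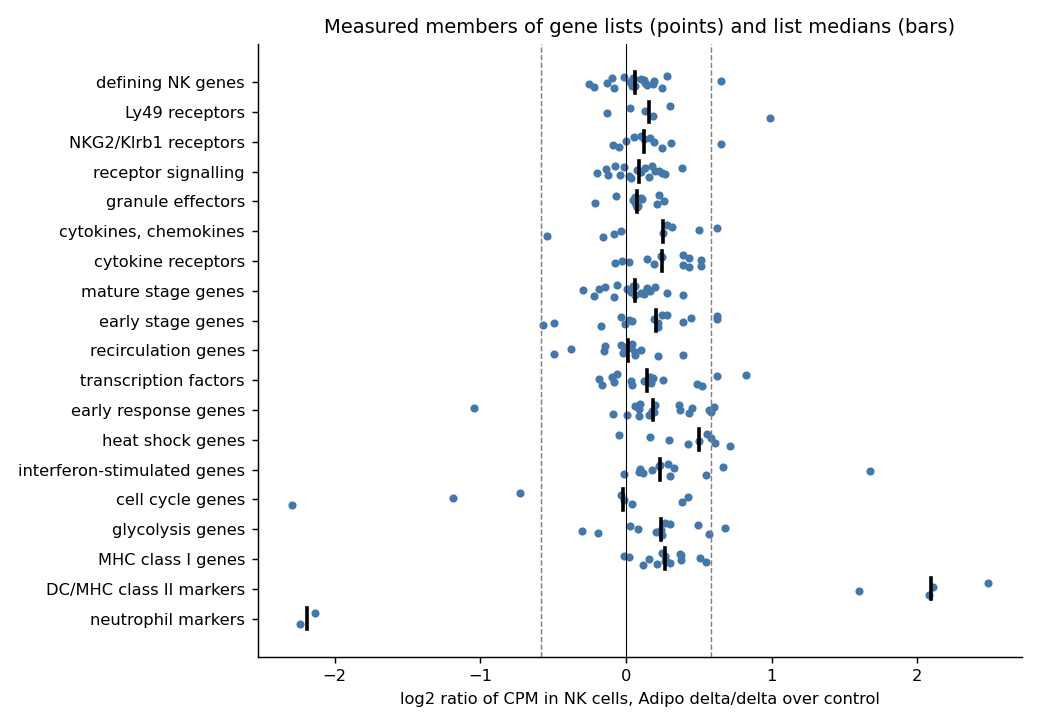
Log2 ratio of CPM in NK cells, Adipo delta/delta over control, for the members of 19 gene lists with at least 100 UMIs (points) and the list medians (black bars), with dashed lines at 1.5-fold. The lists from defining NK genes to transcription factors have medians between 0.01 and 0.25, whereas the few measured MHC class II markers lie at 1.60 to 2.48 and the 2 neutrophil markers below -2.

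Among the genes with the largest ratios were genes typical of myeloid cells. Fn1, the matrix protein fibronectin, had 29 UMIs in control NK cells and 157 in Adipo delta/delta (ratio 6.25, 4.19 to 9.65), and 56 of the 157 lay in 1 cell. H2-Eb1, H2-Ab1, Cd74 and H2-Aa, which build or escort MHC class II, had ratios of 5.6, 4.30, 4.24 and 3.04. Without the 12 cells that held over 5 myeloid UMIs, the ratio of Fn1 was 2.96 and those of the 4 MHC class II genes 3.12, 3.17, 2.79 and 1.81. T cells showed ratios of 3.83, 2.23, 2.35 and 2.24 for the same 4 genes. Retnla, an alternative-activation gene of macrophages, had 126 and 341 UMIs (3.13), with 84 of 173 Adipo delta/delta NK cells holding at least 1, and its ratio was 5.10 in T cells and 42.9 in B cells. Single cells held up to 81 and 119 of these UMIs, and the size depended on the cells kept. The log2 ratio of 1.64 was 0.65 with at most 5% mitochondrial UMIs, 0.50 at 2000 UMIs per cell, which is under 1.5-fold, and 2.51 without the cell with most Retnla UMIs in each library. Ccl6 and Ctss, both myeloid genes, had ratios of 3.80 and 2.02, and Ctss passed no longer without the 12 cells (1.33). The part of free RNA or of cells joined in a droplet in these values was not tested.

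Others among the first 15 were Ifi27l2a (3.20), Rpl9 (2.38), Birc3 (2.14), Gm43305 (2.10) and Rps27 (2.03). Birc3, an inhibitor of cell death and of non-canonical NF-kappaB signalling, was found in 34 control and 51 Adipo delta/delta cells. The ribosomal genes Rpl9 and Rps27 had T cell ratios of 2.05 and 1.66 and B cell ratios of 1.62 and 1.32. Of the 117 higher genes, 53 had at least 100 UMIs in T cells, and 24 of these were at least 1.5-fold higher there too and 0 lower. T cell ratios were higher as a whole, with a median of 0.27 on the log2 scale against 0.077 in NK cells. The share of all T cell genes past 1.5-fold is not given here, so no overlap is read from these counts.

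Among lower genes, Hist1h1b, a linker histone made in S phase, had 181 UMIs in 15 control cells, 80 of them in 1 cell, and 32 in 8 Adipo delta/delta cells (0.204, 0.136 to 0.299). Hist2h2ac, Hist1h1e and Hist1h4d had ratios of 0.394, 0.50 and 0.55, and Mki67 had 87 UMIs in 8 control cells and 33 in 5 Adipo delta/delta cells (0.438). At least 10 UMIs over the 24 cell cycle genes were found in 11 control cells (5.07%, 2.56 to 8.89%) and in 5 Adipo delta/delta cells (2.89%, 0.945 to 6.62%), intervals that overlap. Nr4a1, an early response gene of receptor signalling, had 81 UMIs in 19 control cells and 34 in 15 Adipo delta/delta cells.

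S100a8 and S100a9, neutrophil genes, had 142 and 203 UMIs in control and 26 and 40 in Adipo delta/delta (0.211 and 0.228). S100a8 was found in 35.9% of control and 12.7% of Adipo delta/delta NK cells, and in 36.5% and 12.3% of T cells. S100a9 was found in 45.2% and 19.7% of NK cells and in 41.0% and 19.3% of T cells. In summed UMIs the T cell ratios were 1.3 for S100a8 and 1.05 for S100a9, but 257 of the 284 S100a8 UMIs and 255 of the 308 S100a9 UMIs of Adipo delta/delta lay in a single T cell each. Gm42418 took 85292 CPM in control and 39837 in Adipo delta/delta (0.467). Lars2, Gm20594, Gm15564, Rpl36a-ps1 and Wdr89 had ratios of 0.399, 0.481, 0.310, 0.432 and 0.501. In T cells Gm42418 and Lars2 had ratios of 0.477 and 0.40. Tpm3-rs7 (0.551) completed the first 15. Of the 44 lower genes 24 were measured in T cells, where 9 were lower by 1.5-fold too and 6 higher. These counts also lack the share of all T cell genes past 1.5-fold, so no overlap is read from them.

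**Figure D4:**
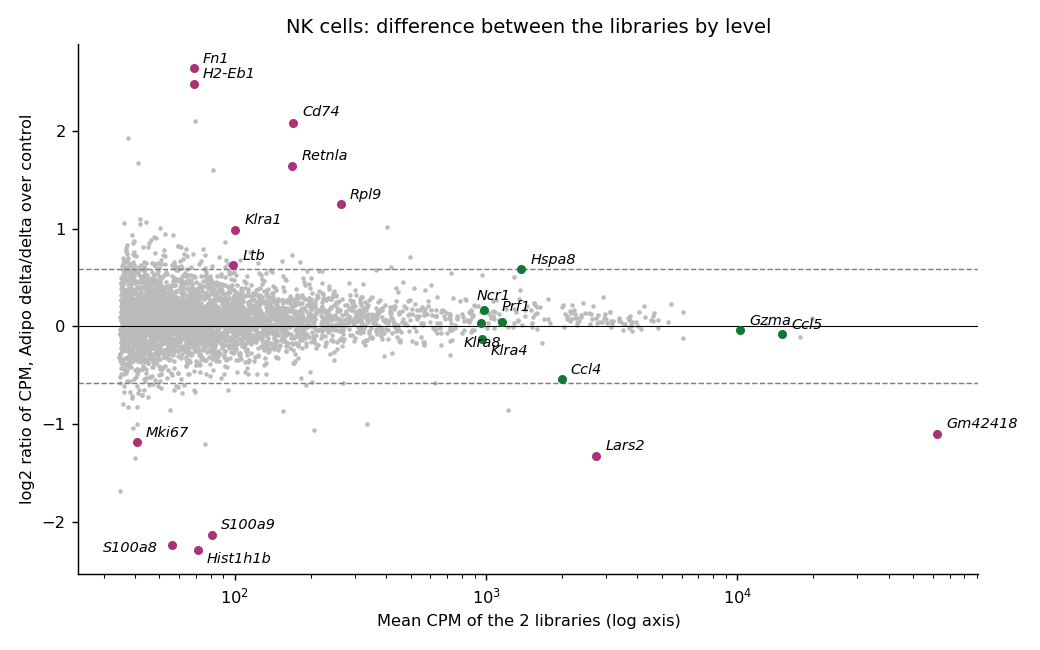
Log2 ratio of CPM in NK cells, Adipo delta/delta over control, against the mean CPM of the 2 libraries (log axis) for 4001 genes, with dashed lines at 1.5-fold. Purple labels pass 1.5-fold and green labels do not, and Ccl5, Klra8 and Klra4 lie within 0.13 of 0. Gzma, Prf1 and Ncr1 are genes of the rule and are drawn as a description.

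Detection of Cd27, a receptor of the tumor necrosis factor family that marks the early stage, divided the NK cells into groups whose early and mature stage genes differed in both libraries. At 2000 UMIs per cell, 26 of 214 control cells (12.1%, 8.09 to 17.3%) and 19 of 173 Adipo delta/delta cells (11.0%, 6.74 to 16.6%) held a Cd27 UMI, a ratio of 0.904 (0.473 to 1.70). The ratio was 1.09 (0.337 to 3.45) at 1000 UMIs and 1.35 (0.794 to 2.30) at 4000, so no direction is read. T cells gave 23.8% and 28.2%, and B cells 0 of 109 and 0 of 51. Without thinning, 56 control cells with at least 2000 UMIs held Cd27 and 158 did not, with 53 and 120 in Adipo delta/delta. Cells with Cd27 were deeper (medians of 8655 against 6049 UMIs in control and of 9252 against 6078 in Adipo delta/delta).

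Of 1948 genes measured in both libraries, 14 (0.719%) were at least 1.5-fold higher in cells with Cd27 in both, and 33 (1.69%) at least 1.5-fold lower in both. Of 13 measured early stage genes 7 were among the higher genes, and of 17 mature stage genes 9 were among the lower ones. Both stage lists were written with earlier results of these data known, so counts of their members describe the cells and test nothing. Across the 1948 genes the log2 ratios of the 2 libraries had a Pearson r of 0.457, and 464 genes were above 0 in both and 788 below 0 in both. The early and mature lists had medians of 0.78 and -0.82 in control and of 0.81 and -0.82 in Adipo delta/delta, beside -0.06 and -0.06 over all genes. Emb, the adhesion protein embigin, stood at 148 CPM in control cells with Cd27 and 34.0 without (4.36-fold, 2.88 to 6.72), and at 179 and 39.2 in Adipo delta/delta (4.57-fold, 3.03 to 7.06). Ctla2a, an inhibitor of cathepsin-like proteases, was 2.61-fold and 2.03-fold higher, and Thy1, a surface glycoprotein of T cells and early NK cells, 2.09-fold and 2.40-fold. Cmtm7, Cd7, Zfp512, Ly6e, Ccr2, Ctla2b and Ltb completed the first 10.

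Cma1 stood at 80 CPM in control cells with Cd27 and 300 without, and at 76.0 and 270 in Adipo delta/delta, ratios of 0.267 and 0.282. S1pr5, the sphingosine phosphate receptor that lets mature NK cells leave tissue for blood, had ratios of 0.269 and 0.312. Klrg1, an inhibitory receptor of terminal maturation, had 0.175 and 0.413, and Ly6c2 had 0.449 and 0.215. Zeb2, a repressor that drives the last steps of maturation, had 0.387 and 0.480, Gzmb 0.468 and 0.478, and Irf8 0.505 and 0.488. Cd74, Borcs7 and D1Ertd622e were the others of the first 10. S100a4 went against its list, 2.07-fold higher with Cd27 in control and 1.43-fold in Adipo delta/delta. Of 6 Ly49 genes 0 passed in both libraries, a count near the background, and their medians were 0.13 in control and -0.44 in Adipo delta/delta.

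With only cells of 4000 to 10000 UMIs, which narrows the range of depths, 36 control and 31 Adipo delta/delta cells had Cd27. Whether cells with Cd27 were still deeper within this range is not given here. There 4 of 10 early stage genes were higher and 7 of 17 mature stage genes lower in both libraries. Of all 1232 genes measured there, 0.568% were higher and 1.62% lower in both. When Cd27 was called after thinning each cell to 2000 UMIs, 3 of 13 early stage genes were higher and 6 of 17 mature stage genes lower in both. Over all 1948 genes of that call, 0.616% were higher and 2.57% lower in both. With cells of 4000 to 10000 UMIs, Emb was 4.09-fold and 2.63-fold higher with Cd27, and Cma1 had ratios of 0.315 and 0.401. Since a cell can hold Cd27 RNA without a UMI, cells without a Cd27 UMI are a mixture, and these ratios describe detection and not sorted stages.

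**Figure D5:**
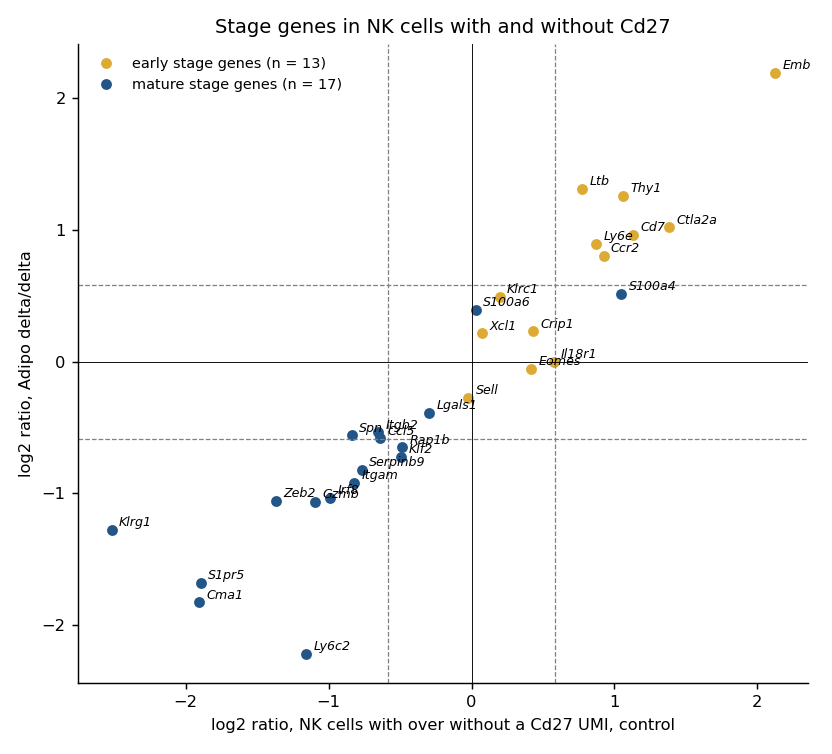
Log2 ratio of CPM in NK cells with a Cd27 UMI over those without, in control (horizontal axis) and Adipo delta/delta (vertical axis), for early stage genes (yellow, 13) and mature stage genes (blue, 17), with dashed lines at 1.5-fold. Emb lies highest at 2.12 and 2.19, and most mature stage genes lie below 0 on both axes, with S100a4 and S100a6 above it.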

How the data were processed

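CD45+ cells of BAT were captured in 1 10x Genomics 3′ library per condition. The authors used Cell Ranger 4.0.0 with mm10, per the labels, and deposited whole UMI counts that had not been scaled, of 11327187 UMIs in 2597 control barcodes and 12028844 in 2381 Adipo delta/delta barcodes. Filters and the gate are given with the results. UMIs were summed per library over each cell group and scaled to CPM (UMIs per 1000000), with exact Poisson intervals. Shares carry Clopper-Pearson intervals and ratios conditional binomial ones (SciPy 1.17.1), which cover counting error only. The 3′ counts carry no length correction. With 1 library per condition no test across genes was run. The ratio calculation was run on counts simulated from summed UMIs, without clumping of UMIs in single cells and without differences between libraries. That run checks the calculation only and not how the intervals hold for these data. Named genes were those of fixed lists, the 15 largest ratios per side among genes of at least 100 UMIs, and the leading genes of NK against T cells (gate genes left out) and of cells with Cd27. The members and lists were chosen with earlier results of these data known. No doublet caller was run. Alternatives on filters, gate, scaling and depth are given at the end. Some genes that the naming rule takes are not reported here.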

Additional observations from a re-analysis of the deposited data

Results flagged for a closer look

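6 genes of the cell cycle or of histones were at least 1.5-fold lower in Adipo delta/delta NK cells while they were higher in the T cells of the same libraries. Each interval excluded 1, but in NK cells it did so for all 44 lower genes, so it does not set these 6 apart. The intervals cover counting error only and take no account of UMIs that lie together in single cells. The difference between the cell types was not tested, since there is 1 library per condition. The ratio of Adipo delta/delta to control was 0.622 in NK cells and 2.63 in T cells for H2afx, 0.204 and 22.6 for Hist1h1b, and 0.5 and 1.81 for Hist1h1e. It was 0.55 and 2.97 for Hist1h4d, 0.438 and 9.98 for Mki67, and 0.605 and 14.4 for Top2a. Few cells carried these counts, with Mki67 in 8 control and 5 Adipo delta/delta NK cells. At least 10 UMIs over the 24 cell cycle genes were found in 3 of 271 control T cells and in 19 of 212 Adipo delta/delta T cells.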

How the results depend on the processing

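No paired analysis was possible because there is 1 library per condition, and for the same reason no library could be left out. Over the settings tried, 76 main values stayed within their limits and 27 moved. For counts of genes, the limit was on their number and not on which genes they were. The NK share ratio was 1.23 relative to NK, T and B cells. Genes higher and lower in Adipo delta/delta numbered 57 and 80 with median-of-ratios scaling (median of all genes -0.025), 593 and 274 of 7443 from 30 UMIs, 1864 and 1201 of 11562 with no filter, and 27 and 16 of 1106 at 2000 UMIs per cell. The higher genes numbered 70 with totals without Gm42418, a setting chosen after seeing the data. Of the 27 and 16 genes at 2000 UMIs per cell, 7 and 5 were also called in the main setting. Without the limit on granule genes 159 and 51 genes were called, 87 and 29 of them also in the main setting. Genes higher in NK than in T cells numbered 787 from 30 UMIs and 104 at 2000 UMIs per cell.

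Shares of cells with a UMI followed depth. Cd27 was found in 3.70% of control and 4.05% of Adipo delta/delta NK cells at 1000 UMIs, in 15.1% and 20.4% at 4000, and in 25.8% and 30.6% without thinning. At least 2 Ly49 genes were found in 65.3% and 63.6% at 1000 UMIs, in 84.3% and 87.3% without thinning, and in 70.5% and 72.3% without the limit on granule genes. In the Cd27 comparison, 7 genes were higher and 20 lower of 1232 measured among cells of 4000 to 10000 UMIs. When Cd27 was called after thinning to 2000 UMIs, 50 of 1948 genes were lower. Both settings were chosen after seeing the data. In that thinned call Emb was 1.61-fold and 7.74-fold higher. At 2000 UMIs per cell the log2 ratio between the libraries turned to -0.22 for Birc3 and -0.11 for Gm43305. Of the values of single genes and lists, 722 stayed, 41 moved and 12 no longer passed. The causes were not tested.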
